A study of Mus musculus with 6 samples.

Results

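Agrp and Npy are the peptide genes described here across hypothalamic neurons, 2 of the 27514 genes that the matrices of all 3 pools share, and both were taken by name. Unique molecular identifiers (UMIs), each standing for 1 captured RNA molecule, were counted per gene in single nuclei of mouse hypothalamus that had been sorted for the neuronal protein NeuN. The OB pool came from ob/ob mice, which lack leptin, kept on chow. The DIO pool came from mice made obese by a high-fat diet, and the chow pool from mice fed chow. In every pool, 1 hashtag antibody labelled the rapamycin nuclei and the other the vehicle nuclei, rapamycin being a drug that inhibits the mTOR kinase. The 6 groups were therefore OB with rapamycin, OB with vehicle, DIO with rapamycin, DIO with vehicle, chow with rapamycin and chow with vehicle. Each group is 1 hashtag of 1 capture, and neither the mice behind a hashtag nor their age, sex or dose is given in the sources used here. No difference within a pool or between pools therefore has a replicate check, and the 95% intervals below are exact intervals that cover counting error only.

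The pools were unlike in depth and in processing, which touches every comparison between them. The OB pool held a median of 2805 UMIs in each of 12284 barcodes, the DIO pool 5572 in 11405 and the chow pool 5826 in 10853. The OB file header names Cell Ranger 7.0.1, while the DIO and chow headers name 6.0.0, so obesity model, capture and software version cannot be told apart. In the OB pool 3731 barcodes had no hashtag call, against 406 in the DIO pool and 191 in the chow pool. The OB loss was uneven between treatments. The call used gave 2323 vehicle and 5607 rapamycin nuclei in OB, while a call by the ratio of the tags gave 5513 and 5367. Pairs of pools shared 31 to 38 barcode sequences. After doublets between hashtags were removed, 8517 OB, 10240 DIO and 9725 chow nuclei counted as neurons, each with at least 5 UMIs of 6 neuronal markers and fewer of any glial, vascular or pituitary list. Summed neuronal markers were at 4561 to 4913 CPM in these neurons (UMIs for every 1000000 UMIs), against at most 195 CPM for any non-neuronal list in the 6 groups. The neurons were chosen by these same lists, so this contrast describes the choice and is not a separate check of it.

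Agrp encodes agouti-related peptide, which blocks melanocortin receptors 3 and 4 by acting as an inverse agonist. Npy encodes neuropeptide Y, which acts on the Y receptors. In the mouse, both are made by GABAergic neurons of the arcuate nucleus that drive feeding, carry leptin and ghrelin receptors and are active when leptin is low. Npy is also made by other neurons across the brain, whereas Agrp is used as a marker of the arcuate population.

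The RefSeq table of assembly GRCm38.p6 places Npy on chromosome 6 (49822710 to 49829507) and Agrp on chromosome 8 (105566695 to 105579845). The whole 13151-base span of Agrp lies inside the annotated span of Gm38250, a long noncoding RNA that starts 515 bases to the left of it and ends 2423 bases to the right. Agrp itself had no entry in the table of promoter sequences. The 250 bases before the annotated starts of Npy and of Gm38250 are printed because Npy is a member and because the span of Gm38250 holds Agrp. The second window is that of Gm38250 and not of Agrp. It also overlaps the annotated span of the neighbouring gene Atp6v0d1, which ends at 105566064. Both windows are from RefSeq on GRCm38.p6, plus strand, chr6:49822460-49822709 for Npy and chr8:105565930-105566179 for Gm38250. Capitals mark ATAAAA in the Npy window, and CACGTG and TGACG in the Gm38250 window.
Npy: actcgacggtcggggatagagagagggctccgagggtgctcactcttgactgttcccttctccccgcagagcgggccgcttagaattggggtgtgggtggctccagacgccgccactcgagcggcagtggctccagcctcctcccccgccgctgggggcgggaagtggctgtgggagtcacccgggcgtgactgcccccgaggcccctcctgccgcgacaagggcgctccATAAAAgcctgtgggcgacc
Gm38250: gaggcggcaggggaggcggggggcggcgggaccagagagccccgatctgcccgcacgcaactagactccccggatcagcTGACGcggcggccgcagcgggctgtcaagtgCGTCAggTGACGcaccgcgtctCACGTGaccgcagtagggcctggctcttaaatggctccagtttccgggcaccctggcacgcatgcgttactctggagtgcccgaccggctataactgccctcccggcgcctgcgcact

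In the Npy window, ATAAAA begins 20 bases before the annotated start, a run that 17.0% of the 32851 windows of this length in the table hold on either strand. Searched there on both strands and not matched were the TATA box TATAAA (12.4% of windows), the E-box form CACGTG, the cAMP response element TGACGTCA (1.55%) with its shorter form TGACG, the STAT form TTCNNNGAA (7.02%) and the forkhead form GTAAACA (3.17%). In the Gm38250 window, CACGTG lies 118 bases before the start and was held by 6.02% of windows. TGACG occurs there 3 times, at 171 and 133 bases before the start and, on the other strand, at 140 bases, and 17.8% of windows hold it. The motifs searched do not overlap each other in the Gm38250 window, and a match is a description of letters only.

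Agrp was far more often counted than Npy in all 3 pools. In neurons, Agrp gave 2383 UMIs in the OB pool, 3693 in the DIO pool and 3475 in the chow pool, which is 76.7, 57.1 and 55.8 CPM for OB, DIO and chow. Npy gave 317 UMIs in OB neurons, 57 in DIO neurons and 152 in chow neurons, or 10.2, 0.881 and 2.44 CPM. Counts of the 2 genes are of 3'-end tags and are not scaled to length, so their ratio describes captured molecules only. There were 7.52 Agrp UMIs for each Npy UMI in OB neurons, 64.8 in DIO neurons and 22.9 in chow neurons. The ratio therefore differed between pools mainly through Npy, whose level spread over a wider range than that of Agrp.

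Agrp was spread thinly over many neurons and Npy over few. An Agrp UMI was seen in 21.5% of OB, 27.7% of DIO and 27.0% of chow neurons, and an Npy UMI in 2.34%, 0.518% and 1.28% of OB, DIO and chow neurons. Neurons with only 1 or 2 Agrp UMIs held 84.3% of the Agrp UMIs of OB neurons, 86.8% in the DIO pool and 83.3% in the chow pool. The most in 1 nucleus of any kind was 20 Agrp UMIs in OB, 8 in DIO and 15 in chow, and 10, 2 and 7 Npy UMIs in those pools. Since shares of nuclei depend on depth, each neuron was also thinned to 2000 UMIs, which left out 1069 OB, 39 DIO and 20 chow neurons. Agrp was then seen in 13.3% of OB, 11.1% of DIO and 10.3% of chow neurons, so OB stood highest of the pools where it had stood lowest. Npy was then seen in 1.46%, 0.167% and 0.381% of OB, DIO and chow neurons, in the same order as at full depth.

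Most Agrp UMIs lay in neurons in which no Npy was seen. Neurons without an Npy UMI held 88.8% of the Agrp UMIs of OB neurons, 98.7% of those of DIO neurons and 94.9% of those of chow neurons. Their Agrp level was 69.9 CPM in the OB pool (95% interval 66.9 to 72.9), 56.7 CPM in DIO (54.8 to 58.5) and 53.7 CPM in chow (51.9 to 55.6). Nuclei with non-neuronal markers, which should lack the gene, had 52.9 CPM of Agrp in OB, 46.1 CPM in DIO and 50.4 CPM in chow. These nuclei were shallower, with medians of 1618, 2023 and 2128 UMIs for OB, DIO and chow. The Agrp level of neurons without Npy in DIO and chow was thus within the counting interval of the non-neuronal level, while in OB it was higher. How much of the Agrp level of neurons without Npy is free RNA was not tested.

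At full depth, the Agrp level was higher in neurons with more Npy UMIs in every pool. Agrp was at 69.9, 222 and 679 CPM in OB neurons with 0, 1 and 2 or more Npy UMIs. The same steps gave 56.7, 122 and 198 CPM in DIO neurons and 53.7, 157 and 416 CPM in chow neurons. Depth differed over these steps, with medians of 3292, 3758 and 3528 UMIs in OB, 5676, 6973 and 7930 in DIO, and 5888, 6449 and 6799 in chow. The highest step held 51 OB, 4 DIO and 21 chow neurons, so the DIO value rests on 6 Agrp UMIs. Agrp was detected in 84.3% of those OB neurons (95% interval 71.4 to 93.0), 75% of those DIO neurons (19.4 to 99.4) and 85.7% of those chow neurons (63.7 to 97.0). In neurons with 0 Npy UMIs, Agrp detection was 20.8% in OB, 27.6% in DIO and 26.7% in chow. Of the neurons with 2 or more Npy UMIs, 36 OB, 2 DIO and 17 chow nuclei had more GABAergic than glutamatergic marker UMIs, and none in any pool had more glutamatergic.

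Read in the other direction, the share of neurons with an Npy UMI was higher where Agrp was high. With 0, 1, 2, 3 or 4, and 5 or more Agrp UMIs, an Npy UMI was found in 1.45%, 2.73%, 9.16%, 36.6% and 55.0% of OB neurons. In DIO neurons these shares were 0.378%, 0.643%, 0.778%, 4.44% and 9.09%. In chow neurons they were 0.887%, 1.45%, 2.69%, 5.88% and 37.8%. Among neurons with 5 or more Agrp UMIs, Npy was seen in 11 of 20 in OB, 1 of 11 in DIO and 14 of 37 in chow. At least 2 of the 7 arcuate markers were found in 11 of these OB, 7 of these DIO and 27 of these chow neurons. More GABAergic than glutamatergic marker UMIs were found in 13 OB, 7 DIO and 25 chow neurons of this kind, and the opposite in 0, 2 and 2. Most Npy UMIs still lay in neurons with fewer Agrp UMIs, since neurons with 3 or more Agrp UMIs held 25.2% of the Npy UMIs of OB neurons, 14.0% in DIO and 20.4% in chow. Co-detection was rare in absolute terms, with both genes in 102 OB, 25 DIO and 61 chow neurons, Agrp alone in 1726, 2811 and 2562, and Npy alone in 97, 28 and 63. After thinning, both genes were still seen in 48 OB, 2 DIO and 12 chow neurons.

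Agrp and Npy also followed a list of arcuate markers that leaves out both genes. The list was chosen with earlier results of these data known, so it is not independent support. The markers were Acvr1c (an activin-type receptor), Ghsr (the ghrelin receptor), Lepr (the leptin receptor), Otp (a homeobox transcription factor), Corin (a protease), Asb4 and Tbx3 (a T-box transcription factor). With 0, 1, 2 and 3 or more of these markers seen, Agrp was at 67.3, 86.3, 193 and 349 CPM in OB neurons, 56.1, 55.0, 61.5 and 115 CPM in DIO neurons, and 50.8, 53.2, 74.7 and 281.5 CPM in chow neurons. Npy was at 3.89, 18.4, 94.9 and 145 CPM in OB, 0.397, 0.611, 3.67 and 15.7 CPM in DIO, and 1.28, 1.97, 7.63 and 50.8 CPM in chow. The top step, called the arcuate marker class below, held 64 OB, 145 DIO and 113 chow neurons. It was 0.751%, 1.42% and 1.16% of the neurons of OB, DIO and chow, and held 4.24%, 3.36% and 7.02% of their Agrp UMIs. Both genes were thus higher in that class than in neurons with no marker in every pool, and for Agrp by least in DIO.

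**Figure D1:**
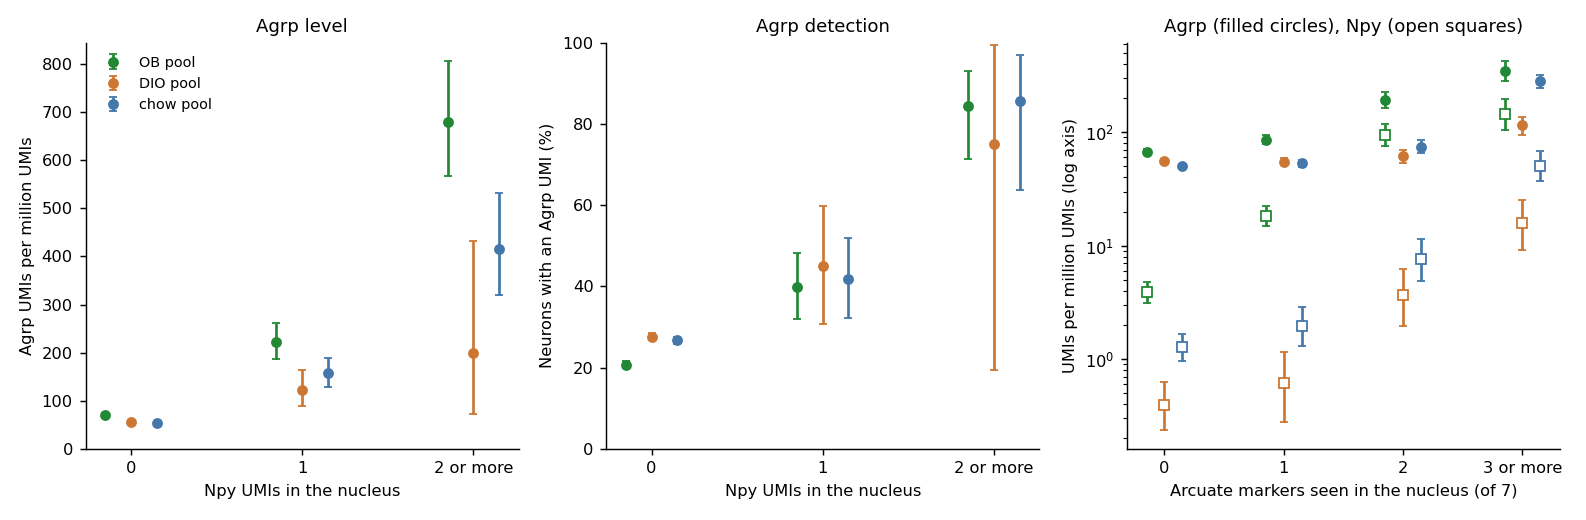
Agrp CPM (left) and percent of neurons with an Agrp UMI (middle) by Npy UMIs in the nucleus, and Agrp and Npy CPM on a log axis by how many of 7 arcuate markers were seen (right), for the OB, DIO and chow pools with exact 95% intervals for counting error. Agrp was at 69.9, 222 and 679 CPM in OB neurons with 0, 1 and 2 or more Npy UMIs, and both genes were highest at 3 or more markers in each pool.

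The Agrp level without Npy was then taken by class of neuron. Classes were formed from at least 3 UMIs of 1 to 3 marker genes, could overlap, and were listed with 20 nuclei or more. Over 12 OB classes the Agrp level in nuclei without Npy had a median of 74.7 CPM, with the lowest value of 51.3 CPM in the Pomc class and the highest of 184 CPM in the Lepr class. Over 14 DIO classes it had a median of 54.9 CPM, from 46.96 CPM in the Nos1 class to 80.9 CPM in the Hcrt class. Over 15 chow classes it had a median of 56.2 CPM, from 33.6 CPM in the Tac1 class to 86.2 CPM in the Calcr class. Pomc encodes the precursor of the melanocortins that Agrp opposes, Nos1 a nitric oxide synthase, Hcrt orexin, Tac1 substance P and Calcr the calcitonin receptor. Every pair of neighbours in the order of classes had overlapping counting intervals. The Lepr class of OB (95% interval 135 to 246 CPM) and the Calcr class of chow (70.5 to 104 CPM) lay above the interval of all neurons without Npy in their pool, and no such class did in DIO.

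The arcuate marker class stood above those classes even where no Npy was seen. Without Npy, it had 322 CPM of Agrp in OB, 101 CPM in DIO and 223 CPM in chow. Oligodendrocyte-marker nuclei had the lowest Agrp levels without Npy, at 31.1 CPM in OB, 25.3 CPM in DIO and 32.0 CPM in chow. Astrocyte and tanycyte nuclei had 59.5, 55.9 and 60.7 CPM for OB, DIO and chow, close to neurons. The counting intervals of these glial classes overlapped in every pool, and the oligodendrocyte interval of OB (17.4 to 51.4 CPM) lay below that of OB neurons without Npy.

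Transmitter markers split the 2 genes unequally. In nuclei without Npy, Agrp was at 75.6 CPM in GABAergic against 60.4 CPM in glutamatergic OB neurons, 61.1 CPM in GABAergic against 53.6 CPM in glutamatergic neurons in DIO and 57.5 CPM in GABAergic against 45.8 CPM in glutamatergic neurons in chow. The log2 ratio of GABAergic over glutamatergic was 0.32 in OB (95% interval 0.14 to 0.51), 0.19 in DIO (0.07 to 0.30) and 0.33 in chow (0.20 to 0.45). GABAergic and glutamatergic neurons had medians of 3417 and 3989 UMIs in OB, 5746 and 6513 in DIO, and 5968 and 6547 in chow. Npy was at 19.2 against 2.96 CPM in GABAergic against glutamatergic OB neurons, 1.29 CPM in GABAergic against 0.505 CPM in glutamatergic neurons in DIO and 3.61 CPM in GABAergic against 1.5 CPM in glutamatergic neurons in chow. Agrp UMIs per Npy UMI were 4.59 in GABAergic and 20.6 in glutamatergic OB neurons, 47.6 in GABAergic and 106.7 in glutamatergic DIO neurons, and 17.0 in GABAergic and 30.5 in glutamatergic chow neurons. In the arcuate marker class the ratio was lower, at 2.41 in OB, 7.29 in DIO and 5.55 in chow. The ratio of the 2 genes was therefore not constant across kinds of neuron within a pool.

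Npy was absent from many classes at this depth. No Npy UMI was seen in 2 of the 12 OB classes, 8 of the 14 DIO classes and 7 of the 15 chow classes. The highest Npy level was 116 CPM in the Lepr class of OB, 3.73 CPM in the Calcr class of DIO and 20.6 CPM in the Calcr class of chow. Nuclei with oligodendrocyte markers had 0 Npy UMIs in all 3 pools. In OB, however, 11 Npy UMIs were counted in 600 astrocyte and tanycyte nuclei (10.9 CPM), and nuclei with neither enough neuronal nor enough non-neuronal markers had 19.5 CPM of Npy. That non-neuronal level is as high as the 10.2 CPM of all OB neurons, so low Npy values in OB classes were not separable from background.

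**Figure D2:**
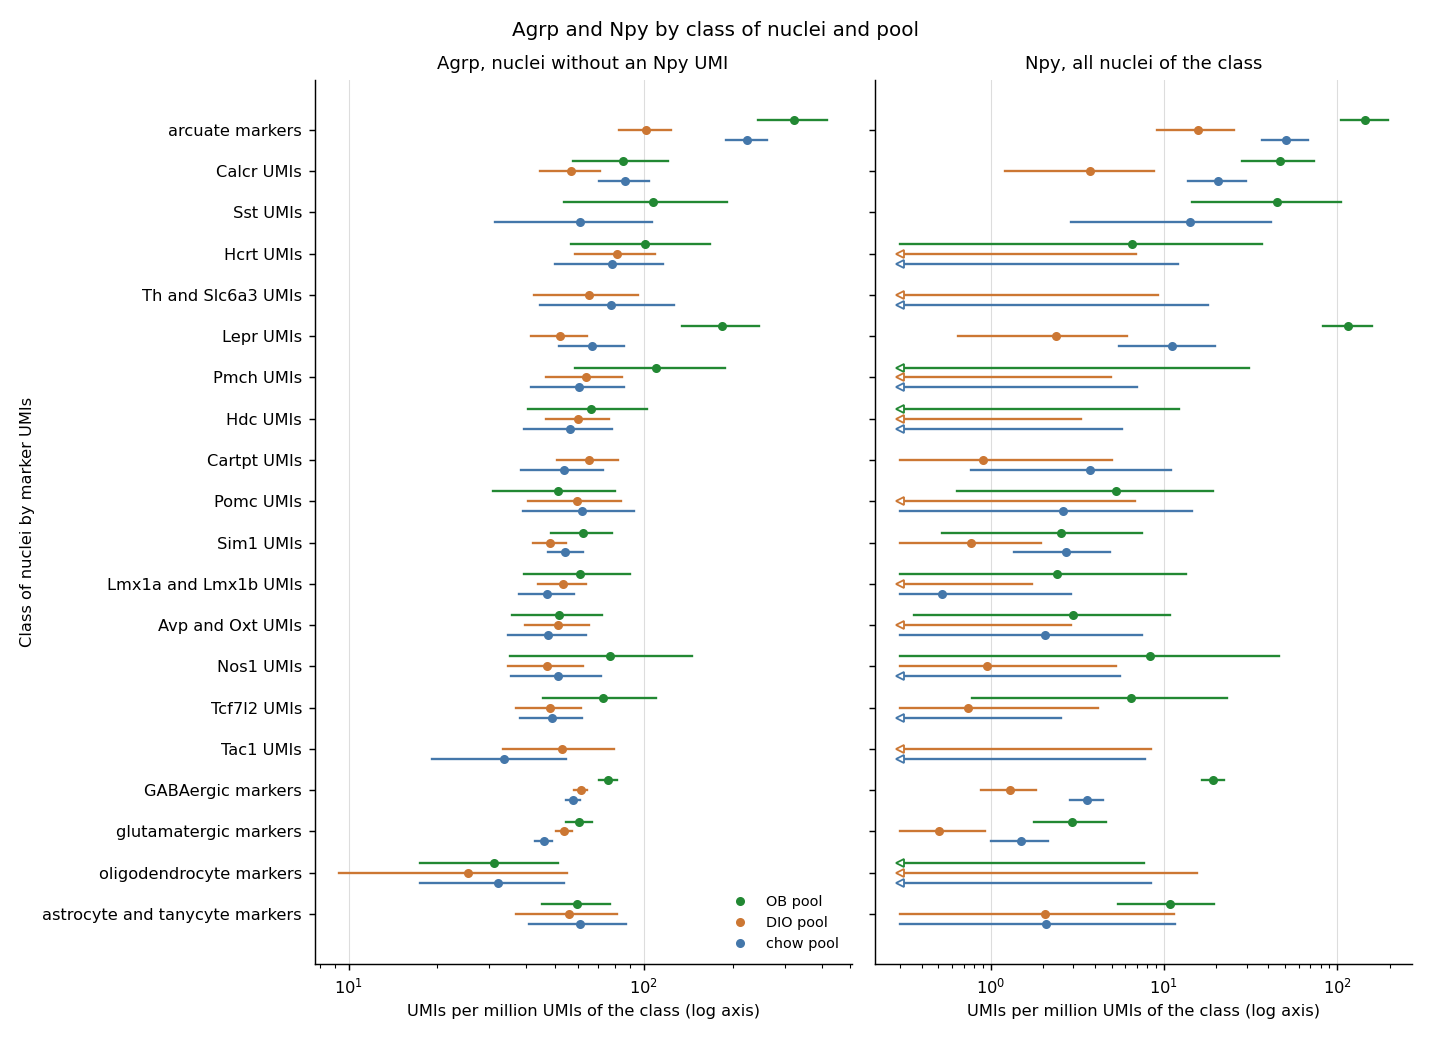
Agrp CPM in nuclei without an Npy UMI (left) and Npy CPM in all nuclei of the class (right), on log axes, by marker class and pool, with exact 95% intervals for counting error cut at the axis edge and open triangles for classes with 0 UMIs. The arcuate marker class stood highest for Agrp, at 322 CPM in OB, 101 CPM in DIO and 223 CPM in chow, while most other classes lay between 40 and 110 CPM.

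The depth of a nucleus moved with the Agrp level of neurons without Npy. Over 4 equal parts of the neurons without Npy, from shallow to deep, Agrp was at 82.3, 72.3, 71.4 and 63.7 CPM in OB, 65.0, 62.3, 55.8 and 51.8 CPM in DIO, and 67.4, 59.8, 51.8 and 46.7 CPM in chow. The level fell with depth in all 3 pools. In nuclei of at least 5000 UMIs, Agrp without Npy was at 65.6 CPM in GABAergic and 53.2 CPM in glutamatergic neurons in OB, 59.6 CPM in GABAergic and 52.2 CPM in glutamatergic neurons in DIO, and 55.3 CPM in GABAergic and 43.3 CPM in glutamatergic neurons in chow. GABAergic neurons thus stayed higher in each pool, with overlapping intervals in OB, and the OB levels were nearer to those of the other pools.

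The neighbours of Agrp on chromosome 8 were counted beside it. Atp6v0d1, a subunit of the vacuolar proton pump whose span ends 630 bases to the left, had 69.2 CPM in OB neurons with Npy and 52.1 CPM in those without, 89.0 CPM with and 53.4 CPM without Npy in DIO, and 66.6 CPM with and 55.5 CPM without Npy in chow. Gm38250, whose span holds Agrp, had 13.6 CPM with and 16.5 CPM without Npy in OB, 13.1 CPM with and 14.4 CPM without Npy in DIO and 25.3 CPM with and 15.8 CPM without Npy in chow. Agrp itself had 330 and 69.9 CPM in OB neurons with and without Npy, 128 CPM with and 56.7 CPM without Npy in DIO, and 202 CPM with and 53.7 CPM without Npy in chow. Of the genes drawn, Agrp alone had intervals for neurons with Npy that lay above those without in all 3 pools. Ripor1 lies 14241 bases to the right, and Hsd11b2 (the type 2 glucocorticoid-inactivating enzyme) and the noncoding Gm5914 lie 42706 and 44490 bases away.

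Among nuclei of like depth, Agrp was seen more often in those that also held a Gm38250 UMI. In each of the 4 depth parts of neurons without Npy, Agrp was detected in 23.3%, 36.2%, 38.5% and 38.7% of OB nuclei with a Gm38250 UMI, against 13.8%, 16.6%, 21.2% and 28.2% of those without one. In DIO the shares were 37.1%, 29.4%, 39.1% and 49.0% with Gm38250 against 17.6%, 24.1%, 28.1% and 36.7% without. In chow they were 27.7%, 35.1%, 41.9% and 47.7% with Gm38250 against 20.3%, 24.0%, 25.7% and 31.6% without. The share was higher with Gm38250 in all 12 comparisons, and in 9 of them its interval lay wholly above. With the neighbour Ripor1, whose span does not overlap Agrp, the share was higher in 10 of 12 but in 0 of them by its interval, and with Atp6v0d1 it was higher in 8 of 12 and in 1 by its interval. Whether the authors' counting used strand is not given in the sources used here, so reads of Agrp and of the Gm38250 span around it cannot be told apart. Across 62 points of class and pool, which share libraries and depth, the Agrp and Gm38250 levels had a Pearson r of 0.04 on the log2(CPM + 1) scale, given as a description.

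**Figure D3:**
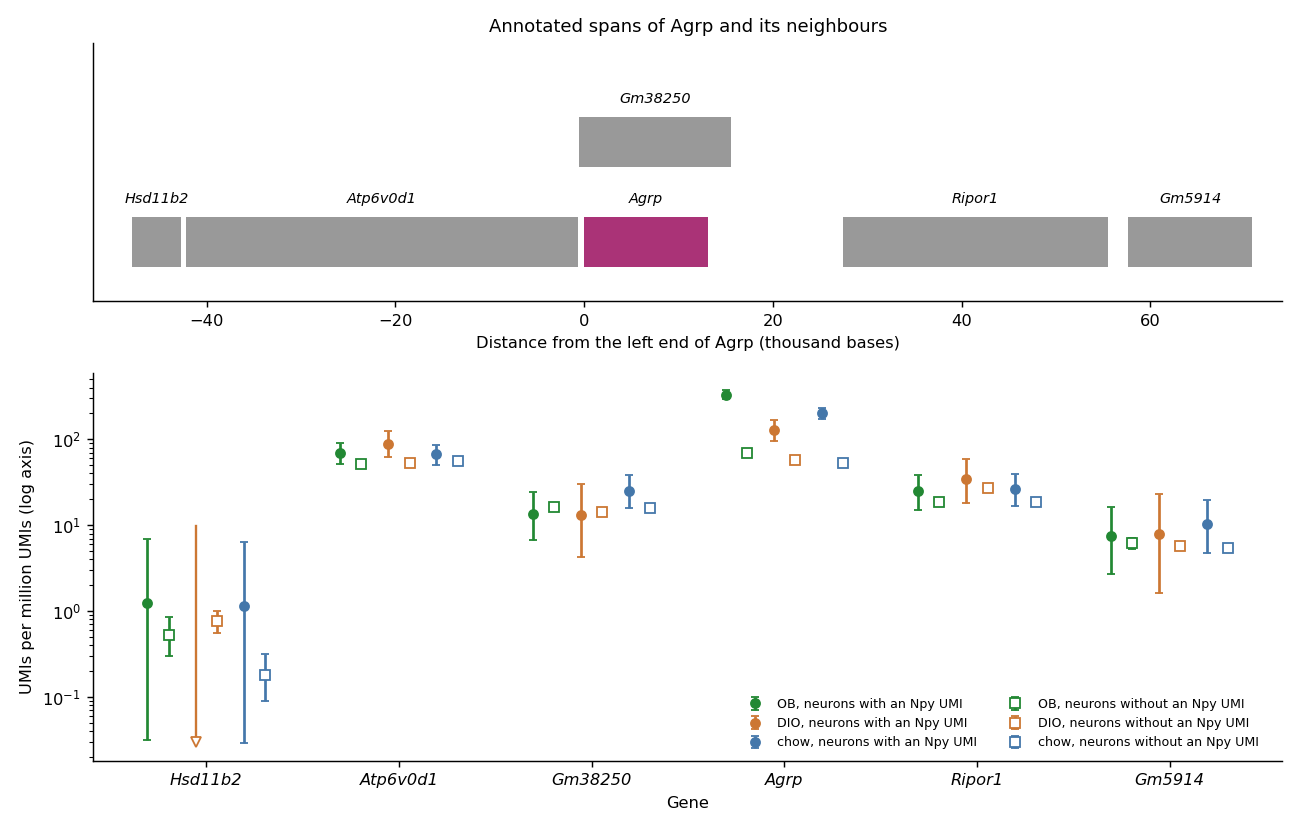
Annotated spans of Agrp and 5 neighbours on chromosome 8 by distance from the left end of Agrp (top), and their CPM on a log axis in neurons with an Npy UMI (filled circles) and without one (open squares) per pool, with exact 95% intervals for counting error (bottom). The open triangle marks 0 UMIs of Hsd11b2, and Agrp is the gene whose filled and open symbols stand clearly apart in all 3 pools, at 330 and 69.9 CPM in OB, 128 and 56.7 CPM in DIO, and 202 and 53.7 CPM in chow.

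Obesity models were compared in vehicle nuclei on the genes shared by the pools. Agrp was at 71.3 CPM in OB, 53.5 CPM in DIO and 53.1 CPM in chow vehicle neurons. The log2 ratio was 0.42 for OB over chow (95% interval 0.27 to 0.58) and 0.01 for DIO over chow (-0.09 to 0.11). Npy was at 7.73 CPM in OB, 0.852 CPM in DIO and 2.21 CPM in chow vehicle neurons, with log2 ratios of 1.80 for OB over chow (1.24 to 2.36) and -1.38 for DIO over chow (-2.10 to -0.70). Npy was thus higher in OB and lower in DIO than in chow, while for Agrp only OB lay apart. Vehicle nuclei with non-neuronal markers, however, held 11.3 CPM of Npy in OB (4.17 to 24.7), 0 UMIs in DIO and 0 UMIs in chow, so the OB level of vehicle neurons was not above that of non-neuronal nuclei. Each of these is 1 hashtag against 1 hashtag, and OB over chow and DIO over chow share the chow vehicle nuclei.

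Inside the arcuate marker class, both genes were highest in OB and lowest in DIO. Agrp was at 315 CPM in 10 OB, 116 CPM in 74 DIO and 218 CPM in 64 chow vehicle nuclei, and Npy at 98.5, 15.3 and 25.1 CPM for OB, DIO and chow. The Agrp log2 ratio was -0.92 for DIO over chow (95% interval -1.37 to -0.47) and 0.53 for OB over chow (-0.32 to 1.29). The Npy log2 ratio was -0.71 for DIO over chow (-2.12 to 0.62) and 1.97 for OB over chow (0.13 to 3.55). With 2 or more markers, the Agrp ratio was -0.40 for DIO over chow (-0.70 to -0.11) and 0.67 for OB over chow. The lower Agrp of DIO against chow vehicle mice was therefore beyond counting error in the class and not detectable over all neurons. The reason for this contrast was not tested. A smaller number of neurons of the class and less RNA in each cannot be told apart from sums over all neurons. Pituitary and glial RNA moved with the pool too: the 5 pituitary markers summed to 31.7 CPM in OB, 7.03 CPM in DIO and 2.02 CPM in chow vehicle neurons, and the 6 astrocyte and tanycyte markers to 59.5, 10.3 and 11.2 CPM. Their part in the pool differences was not tested.

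Rapamycin was the treatment compared within each pool. In all neurons, Agrp was at 83.1 CPM with rapamycin and 70.3 CPM with vehicle in OB, 60.2 CPM with rapamycin and 53.4 CPM with vehicle in DIO, and 58.4 CPM with rapamycin and 53.0 CPM with vehicle in chow. The log2 ratio of rapamycin over vehicle was 0.24 in OB (95% interval 0.08 to 0.40), 0.17 in DIO (0.08 to 0.27) and 0.14 in chow (0.04 to 0.24). The level was higher with rapamycin in 3 of 3 pools. The share of neurons with an Agrp UMI was not, at 22.3% with rapamycin and 23.5% with vehicle in OB, 27.7% and 28.0% in DIO, and 27.55% and 26.48% in chow. After thinning to 2000 UMIs, these shares were 13.7% and 13.0% in OB, 11.3% and 10.9% in DIO, and 10.4% and 10.3% in chow. Over 4 depth parts of the neurons without Npy, from shallow to deep, a split chosen after seeing the data, the log2 ratio was -0.20, -0.10, 0.14 and 0.22 in OB, 0.00, 0.16, 0.26 and 0.11 in DIO, and 0.18, 0.16, 0.06 and 0.00 in chow. Of these 12 ratios, only that of 0.26 in DIO had an interval above 0 (0.07 to 0.46). From high to low, the 6 groups ran OB with rapamycin, OB with vehicle, DIO with rapamycin, chow with rapamycin, DIO with vehicle and chow with vehicle. Intervals overlapped between the rapamycin groups of DIO and chow, and between their vehicle groups.

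Npy was at 14.1 CPM with rapamycin and 7.62 CPM with vehicle in OB neurons, 0.905 CPM with rapamycin and 0.850 CPM with vehicle in DIO, and 2.72 CPM with rapamycin and 2.20 CPM with vehicle in chow. The log2 ratio was 0.89 in OB (95% interval 0.43 to 1.37), 0.09 in DIO (-0.72 to 0.91) and 0.30 in chow (-0.17 to 0.79). With hashtags by tag ratio, the OB value was 1.24 (0.87 to 1.62). An Npy UMI was seen in 2.97% of rapamycin and 2.16% of vehicle OB neurons, 0.506% of rapamycin and 0.535% of vehicle DIO neurons, and 1.28% of rapamycin and 1.29% of vehicle chow neurons. In DIO and chow, no Npy difference was detectable at this depth over all neurons. Median UMIs were 3342 in rapamycin and 3752 in vehicle neurons in OB, 5411 in rapamycin and 6166 in vehicle neurons in DIO, and 5943 in rapamycin and 5885 in vehicle neurons in chow. In OB, rapamycin and vehicle neurons also differed in other cell types' RNA, with summed pituitary markers at 11.96 CPM with rapamycin and 31.7 CPM with vehicle, and astrocyte and tanycyte markers at 37.7 CPM with rapamycin and 59.5 CPM with vehicle. The part of this in the Npy difference was not tested.

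The Agrp difference was then taken apart by kind of neuron. In neurons with neither an Npy UMI nor an arcuate marker, Agrp was at 67.5 CPM with rapamycin and 65.1 CPM with vehicle in OB, 59.4 CPM with rapamycin and 51.3 CPM with vehicle in DIO, and 51.7 CPM with rapamycin and 49.9 CPM with vehicle in chow. The log2 ratio there was 0.05 in OB (95% interval -0.14 to 0.24), 0.21 in DIO (0.09 to 0.33) and 0.05 in chow (-0.07 to 0.17). The DIO interval alone lay above 0, the 3 intervals overlapped, and a difference between pools was not tested. In the neurons with an Npy UMI, Agrp was at 405 CPM with rapamycin and 204 CPM with vehicle in OB, 135 CPM with rapamycin and 121 CPM with vehicle in DIO, and 310 CPM with rapamycin and 112 CPM with vehicle in chow. The log2 ratio was 0.99 in OB (0.46 to 1.57), 0.16 in DIO (-0.72 to 1.04) and 1.47 in chow (0.996 to 1.97). In OB and chow the difference in neurons with Npy was beyond counting error, over 133 nuclei with rapamycin and 33 with vehicle in OB, and 60 and 64 in chow. These nuclei were picked by Npy, and 42 and 7 of them in OB and 16 and 5 in chow held 2 or more Npy UMIs. Among those, the Agrp log2 ratio was 0.49 in OB (-0.29 to 1.37) and 1.09 in chow (0.10 to 2.23). In neurons of the arcuate marker class with Npy, it was -0.28 in OB (-1.30 to 0.85) and 0.80 in chow (0.135 to 1.51). Agrp was detected in 58.3% of rapamycin (44.9 to 70.9) and 40.6% of vehicle (28.5 to 53.6) chow neurons with Npy. In OB the shares were 57.1% (48.3 to 65.7) and 51.5% (33.5 to 69.2), so the detection intervals overlapped in both pools. Of chow neurons with 5 or more Agrp UMIs, 10 of 25 with rapamycin (21.1% to 61.3%) and 4 of 12 with vehicle (9.93% to 65.1%) held Npy. At 7 or more Agrp UMIs these were 8 of 13 (31.6% to 86.1%) and 0 of 3 (0% to 70.8%), so the intervals overlapped at both cuts. Agrp UMIs were thus gathered in few nuclei, and the intervals of the log2 ratios do not cover spread between nuclei.

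The arcuate marker class, whose list leaves out both genes, gave the comparison in neurons where both were higher than in neurons with no marker. Agrp was at 389 CPM with rapamycin and 311 CPM with vehicle in OB (42 and 10 nuclei), 117 CPM with rapamycin and 115 CPM with vehicle in DIO (69 and 74 nuclei), and 380 CPM with rapamycin and 217 CPM with vehicle in chow (48 and 64 nuclei). The log2 ratio was 0.32 in OB (95% interval -0.47 to 1.20), 0.02 in DIO (-0.52 to 0.55) and 0.81 in chow (0.43 to 1.18). Npy was at 184 CPM with rapamycin and 97.3 CPM with vehicle in OB, 16.7 CPM with rapamycin and 15.3 CPM with vehicle in DIO, and 90.7 CPM with rapamycin and 25.0 CPM with vehicle in chow. The log2 ratio was 0.92 in OB (-0.44 to 2.63), 0.13 in DIO (-1.45 to 1.67) and 1.86 in chow (0.88 to 2.92). With hashtags by tag ratio, the OB values were 0.51 for Agrp (-0.14 to 1.19) and 1.35 for Npy (0.20 to 2.68). In chow both genes were higher with rapamycin beyond counting error, on 130 Agrp and 31 Npy UMIs with rapamycin, and 113 Agrp and 13 Npy UMIs with vehicle. Other genes differed with the treatment in the chow class. Pomc was at 43.9 CPM with rapamycin and 173 CPM with vehicle (log2 ratio -1.98, 95% interval -2.88 to -1.18). Of the 7 class markers, Otp was higher at 0.76 (0.06 to 1.46), and Asb4 was lower at -0.51 (-0.96 to -0.08), as was Tbx3 at -0.83 (-1.73 to -0.00), while the intervals of the other 4 included 0. Of 25 receptors, processing enzymes and regulators around the 2 peptides, those beside Pomc whose intervals left out 0 were Foxo1 at 2.13 (0.92 to 3.50), Pcsk1n at 0.81 (0.09 to 1.54), Atrn at 0.76 (0.20 to 1.32) and Pcsk1 at -1.18 (-2.44 to -0.07). Their part in the Agrp and Npy values was not tested. In DIO neither difference was detectable. In the OB class, summed pituitary markers were at 54.1 CPM with rapamycin and 19.5 CPM with vehicle, and their part in the OB values was not tested. With at least 4 markers, the Agrp log2 ratio in chow turned to -0.29 (95% interval -1.06 to 0.45), on 24 UMIs with rapamycin and 48 with vehicle. The direction seen in the class was thus not held at that cut, where the interval included 0. Npy in chow stayed higher with rapamycin there, at 1.52 (0.16 to 2.98).

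With at least 2 markers, more neurons entered. Agrp was then at 280 CPM with rapamycin and 150 CPM with vehicle in OB, 76.6 CPM with rapamycin and 71.9 CPM with vehicle in DIO, and 153 CPM with rapamycin and 95.1 CPM with vehicle in chow. Npy was at 139 CPM with rapamycin and 54.5 CPM with vehicle in OB, 7.52 CPM with rapamycin and 5.34 CPM with vehicle in DIO, and 28.1 CPM with rapamycin and 9.16 CPM with vehicle in chow. The log2 ratio of Agrp was 0.90 in OB (95% interval 0.37 to 1.48) and 0.68 in chow (0.42 to 0.95), and that of Npy was 1.35 in OB (0.48 to 2.35) and 1.61 in chow (0.84 to 2.43). In these wider sets, the rapamycin values exceeded the vehicle values beyond counting error in OB and chow for both genes, and not in DIO, where the log2 ratios were 0.09 for Agrp (-0.23 to 0.41) and 0.49 for Npy (-0.66 to 1.67). Whether the pools differ in the effect of rapamycin was not tested.

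**Figure D4:**
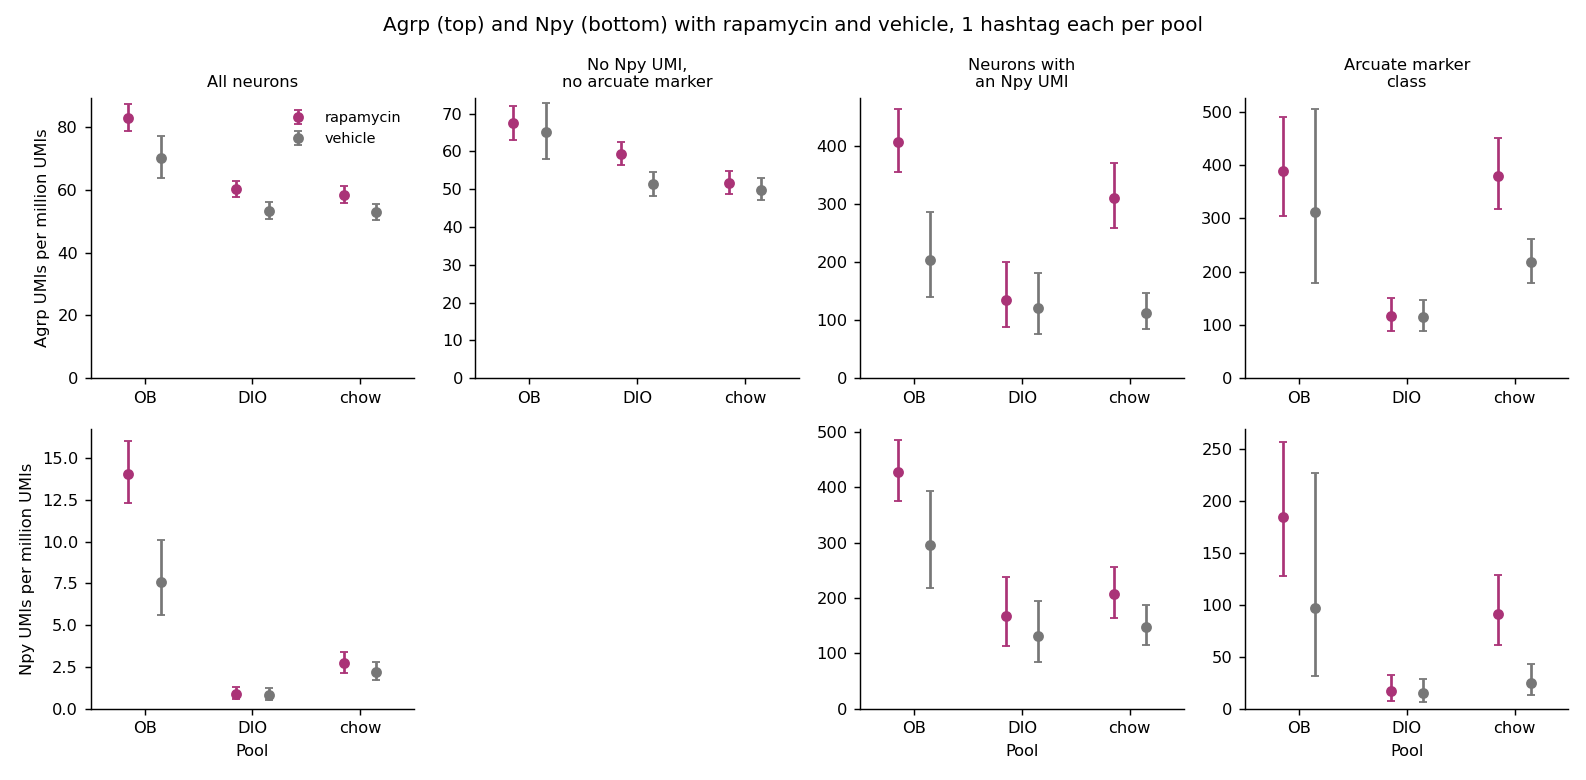
Agrp (top) and Npy (bottom) CPM with rapamycin and vehicle in the OB, DIO and chow pools for 4 sets of neurons, with exact 95% intervals for counting error and 1 hashtag per point. Agrp was 310 CPM with rapamycin and 112 CPM with vehicle in chow neurons with an Npy UMI, while in DIO the values were 135 CPM with rapamycin and 121 CPM with vehicle.

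The 3 pools were then taken as 3 pairs, the only test the design allows. The quasi-likelihood test of edgeR, with the pool as a block and Benjamini-Hochberg adjustment, covered 17335 genes in all neurons and called 0.438% of them, 0.0981% higher and 0.34% lower with rapamycin. These 76 calls rest on which pools enter, with 181 without chow, 1 without DIO and 17 without OB. Neither member was called. Agrp had a log2 fold change of 0.18 (SE 0.058) with an edgeR adjusted p of 0.255, and Npy 0.51 (SE 0.186) with an adjusted p of 0.430. The median over all genes was 0.01, and 5% of genes lay above 0.26. From the highest fold change down, Agrp ranked 1560 and Npy 183 of the genes tested. Adjusted p-values over the alternatives ran from 0.212 to 1 for Agrp and from 0.118 to 1 for Npy, and without the OB pool the Npy fold change was 0.24.

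In the arcuate marker class, 6861 genes were tested and 0 were called by edgeR, with 262 at an unadjusted p under 0.05, and DESeq2 called 0 with 26. The percent called was 0. Agrp had a log2 fold change of 0.45 (SE 0.186, edgeR adjusted p 0.9999) and Npy 1.20 (SE 0.370, edgeR adjusted p 0.9999). Without the chow pool these were 0.13 for Agrp and 0.54 for Npy. Npy ranked 5 and Agrp 445 from the highest fold change among these genes. With at least 2 markers, Npy was at 1.28 with an edgeR adjusted p of 0.0934. The test thus gave no call for either gene, and a p that misses the threshold does not show that levels were alike.

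The receptors, processing enzymes and regulators around these peptides were taken as a list of 25 genes. Of the 23 tested in all neurons, 1 was higher and 2 were lower by edgeR, where 0.0981% of all genes tested were higher and 0.34% lower. Their median log2 fold change was 0.00 against 0.01 over all genes. Pcsk1n (an inhibitor of the prohormone convertase Pcsk1) rose by a log2 fold change of 0.52 (SE 0.059, edgeR adjusted p 4.07e-15). Its level was 94.5 CPM with rapamycin and 54.4 CPM with vehicle in OB, 57.0 CPM with rapamycin and 33.7 CPM with vehicle in DIO, and 61.8 CPM with rapamycin and 56.6 CPM with vehicle in chow. Pcsk1, which cleaves peptide precursors, fell by 0.29 (edgeR adjusted p 0.00378), with log2 ratios of -0.64 in OB, -0.35 in DIO and 0.01 in chow. Pomc was called lower at -1.13 (edgeR adjusted p 2.66e-43), although its pools disagreed. Pomc was at 55.5 CPM with rapamycin and 953.6 CPM with vehicle in OB, 61.7 CPM with rapamycin and 20.7 CPM with vehicle in DIO, and 13.6 CPM with rapamycin and 21.4 CPM with vehicle in chow. The Pcsk1n call was lost without the DIO pool (adjusted p 0.958), and the Pcsk1 call without the DIO pool (1) or the OB pool (0.9998), as were both with DESeq2 and with no replicate block. With hashtags by tag ratio the adjusted p was 2.42e-06 for Pcsk1n and 0.279 for Pcsk1. Over all singlets the adjusted p of Pcsk1 was 0.374. The Pomc call was lost with robust dispersions (adjusted p 0.999), DESeq2 (1), no replicate block (1), hashtags by tag ratio (0.585), all singlets (0.955) and without the DIO pool (0.0729), and its fold change turned to 0.57 without the OB pool.

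Receptors for the 2 peptides gave no call. Npy1r, the main Y receptor of feeding circuits, was at 7.61 CPM with rapamycin and 7.30 CPM with vehicle in OB, 8.87 CPM with rapamycin and 10.8 CPM with vehicle in DIO, and 5.97 CPM with rapamycin and 9.41 CPM with vehicle in chow (edgeR log2 fold change -0.36, adjusted p 0.264). Npy2r and Npy5r, further Y receptors, had log2 fold changes of 0.11 and 0.06, and Mc3r and Mc4r, the receptors that Agrp blocks, 0.15 and 0.11, each with an edgeR adjusted p of 0.999. Npy2r was at 0.62 in OB (0.00 to 1.29), while its intervals in DIO and chow, and those of Mc3r in every pool, included 0. By edgeR over the pools, Lepr was at -0.07, Ghsr at -0.10, Insr (the insulin receptor) at 0.00, Stat3 (which carries the leptin signal) at -0.14, Socs3 (its feedback inhibitor) at -0.08 and Foxo1 (a transcription factor held back by insulin) at 0.04. Bsx, a homeobox factor of Agrp neurons, was at 0.37 (adjusted p 0.999), and the convertase Pcsk2 at -0.15 (adjusted p 0.537). Npy4r and Npy6r were too low to be tested. In the arcuate marker class 15 list genes were tested and none was called, with a median log2 fold change of 0.07 against 0.02 over all genes.

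Neurons with at least 2 Agrp and at least 1 Npy UMI show which other genes keep company with the pair. There were 62 such nuclei in OB, 11 in DIO and 31 in chow, and each gene's level was divided by that in neurons without Npy. By the highest value of the lowest of the 3 pools, the leading gene was Gm20647, at 15.5-fold in OB, 34.9-fold in DIO and 31.7-fold in chow, though on 6, 6 and 9 UMIs. Fli1, an ETS transcription factor, was at 11.95-fold, 24.1-fold and 30.4-fold for OB, DIO and chow. Nr5a2, a nuclear receptor, was at 14.3-fold, 21.0-fold and 11.1-fold. Acvr1c and Corin followed, and both are among the 7 arcuate markers. Vwa5a came next, then Calcr at 7.73-fold, 10.7-fold and 10.6-fold. Ghr, the growth hormone receptor, rested on the most UMIs, with 480 in OB, 125 in DIO and 377 in chow, at 9.0-fold, 7.0-fold and 9.0-fold. Acot12, on 3 UMIs in OB, 1 in DIO and 3 in chow, and Atp7a, a copper transporter, completed the 10.

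Members of the 25-gene list were unequal in the same nuclei. Lepr was at 19.2-fold in OB, 4.46-fold in DIO and 6.65-fold in chow. Foxo1 was at 10.8-fold, 3.14-fold and 5.68-fold, Irs4 (an insulin receptor substrate) at 5.73-fold, 4.22-fold and 10.9-fold, and Stat3 at 3.19-fold, 2.83-fold and 5.43-fold for OB, DIO and chow. Insr was at 1.53-fold in OB, 0.687-fold in DIO and 1.34-fold in chow, and Socs3 had 1, 1 and 0 UMIs in these nuclei in OB, DIO and chow. Npy2r, the presynaptic Y receptor, was at 4.35-fold, 4.06-fold and 10.8-fold. The DIO values rest on 3 UMIs of Foxo1, 4 of Irs4 and 2 of Npy2r. Pomc was at 0.0704-fold in OB and had 0 UMIs in these nuclei in DIO and chow, and 5 UMIs in OB. These nuclei were chosen by Agrp and Npy UMIs, so the ratios describe them and are not tested.

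Neurons with Agrp but no Npy had lower leading ratios than the neurons with both peptides. They were compared with neurons that had neither gene, and numbered 1726 in OB, 2811 in DIO and 2562 in chow. They were also deeper, with medians of 3736, 6437 and 6336 UMIs for OB, DIO and chow, against 3176, 5406 and 5745 in neurons with neither. Corin led at 1.81-fold in OB, 1.75-fold in DIO and 2.14-fold in chow, and Gm38250 followed at 1.88-fold, 1.59-fold and 1.71-fold. The others were Col4a5, Slc26a4, Gm30835, Hdc (the enzyme that makes histamine), Gm20647, Lhx9, Olfml2b and Pmch (melanin-concentrating hormone). The highest of their lowest-pool ratios was thus below 2-fold, against at least 6.36-fold for the 10 genes of the neurons with both peptides. The sets also differ in Agrp threshold, in reference and in size, with 62 OB, 11 DIO and 31 chow nuclei with both peptides. Leading ratios among few nuclei can rest on few UMIs. The part of these differences in the gap was not tested. Neurons with 2 or more Npy UMIs and no Agrp numbered only 8 in OB, 1 in DIO and 3 in chow, too few for a description of their genes.

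**Figure D5:**
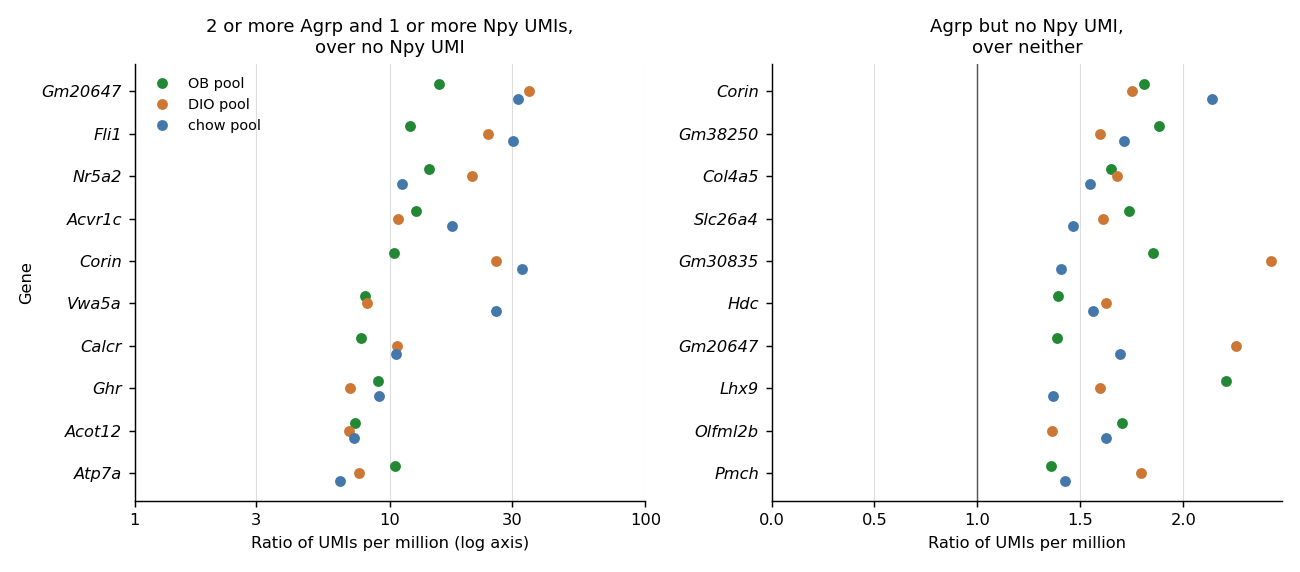
Ratio of CPM per pool for the 10 leading genes of neurons with 2 or more Agrp and 1 or more Npy UMIs over neurons without Npy (left, log axis), and of neurons with Agrp but no Npy over neurons with neither (right, linear axis). Ghr was at 9.0-fold in OB, 7.0-fold in DIO and 9.0-fold in chow on the left, while Corin led the right panel at 1.81-fold, 1.75-fold and 2.14-fold.

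Across classes, Npy was the gene most like Agrp, and Agrp ranked just behind Fli1 for Npy. Over 62 points of class and pool from 23 classes, which share libraries and depth, Pearson's r between Agrp and Npy was 0.74 on the log2(CPM + 1) scale, given as a description. For Agrp the next were Ghr at 0.69, Senp7 (a SUMO protease) at 0.66, Mbd5 at 0.64 and Gm20647 at 0.64. For Npy, Fli1 was first at 0.75, followed after Agrp by Nrf1 at 0.64, Nr5a2 at 0.64 and Ghr at 0.63. Ghr and Gm20647 or Fli1 and Nr5a2 thus stood beside the pair both in single nuclei and across classes, on the same libraries.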

How the data were processed

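Nuclei of mouse hypothalamus were profiled in 3 pools, each with 1 gene expression library and 1 hashtag library. The authors deposited raw UMI counts per gene and raw hashtag counts per barcode, filtered to called cells. Per the submitters' processing notes, reads were processed with Cell Ranger 6.0.0 against mm10. The file headers name 6.0.0 for chow and DIO and 7.0.1 for OB. Groups were read from the deposited hashtag key.

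The filters on nuclei were a minimum of 500 UMIs, a minimum of 300 genes and a mitochondrial share below 5%. HTODemux (Seurat 5.3.0, run in R 4.3.3, with the positive quantile set to 0.99) gave the hashtag calls, and a tag ratio of at least 2-fold was the alternative. A doublet of nuclei that carry the same hashtag goes unseen. Levels are UMIs of the gene per 1000000 UMIs of the summed nuclei, with exact Poisson intervals, and shares and ratios carry exact Clopper-Pearson intervals at 95%. GABAergic or glutamatergic neurons had at least 1 transmitter marker UMI and at least 3 times as many as of the other kind, a threshold chosen after the data were seen. For the ratios of rapamycin over vehicle within a pool, sums thinned to the same total use the median member count of 99 draws. The ratios between pools used a single draw.

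Sums over the 6 hashtags were tested with edgeR 4.0.16 (TMM, filterByExpr, quasi-likelihood, adjusted p of at most 0.05) with pool as a block. Each block holds the 2 hashtags of 1 capture. DESeq2 1.42.0 was an alternative, and the test was checked on simulated data. The edgeR fit estimated 1 spread for all genes, so a gene whose pools disagree can be called, and robust dispersions were added for that reason. Named genes were Agrp, Npy, the 25-gene list, the chromosomal neighbours of Agrp and the genes most like the pair by the ratio and correlation given. Likeness needed at least 50 UMIs in the neurons of every pool and left class markers out of the correlations. The members and lists were chosen with earlier results of these data known. Python 3.11.15, numpy 2.4.6, scipy 1.17.1 and pandas 2.3.3 were used.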

Additional observations from a re-analysis of the deposited data

Results flagged for a closer look

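Npy in vehicle neurons lay on opposite sides of chow in the 2 obesity models, with a log2 ratio of 1.80 for OB over chow and -1.38 for DIO over chow. In the arcuate marker class Npy was at 1.97 for OB over chow (95% interval 0.13 to 3.55) and -0.71 for DIO over chow (-2.12 to 0.62), and Agrp at 0.53 for OB over chow (-0.32 to 1.29) and -0.92 for DIO over chow (-1.37 to -0.47). For each gene, 1 of these directions was therefore not beyond counting error. These were picked out because OB and DIO moved in opposite directions from chow. The differences between the models were not tested, since each group is 1 hashtag, and both ratios share the chow vehicle nuclei.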

How the results depend on the processing

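Of the alternatives run on values without replicates, most stayed within the counting interval of the reported value. With at least 4 of 7 arcuate markers the Agrp log2 ratio of rapamycin over vehicle reversed to -0.29 in chow and moved to -0.93 in DIO, and the edgeR fold change of Agrp over the pools reversed to -0.42. DIO vehicle nuclei then held 0 Npy UMIs, so that ratio gave no value. The cause was not tested. For the share of neurons, the log2 ratio of rapamycin over vehicle was 1.76 for 2 or more Npy UMIs, 0.22 for 2 or more Agrp UMIs and 1.31 for 2 or more of both in chow, 1.67 for both after thinning in chow, and 0.19 for 2 or more Agrp UMIs and 0.11 with tag-ratio calls in OB. In the main setting, the share of OB neurons with an Agrp UMI was lower with rapamycin, at 22.3% against 23.5% with vehicle. The GABAergic over glutamatergic log2 ratio of Agrp was 0.054 in chow and 0.63 in DIO with at least 5 marker UMIs, and 0.31 in DIO and 0.10 in OB with at least 2. Agrp UMIs per Npy UMI were 35.2 in chow and 6.17 in OB GABAergic neurons with at least 5 marker UMIs, and in glutamatergic neurons 48.0 in OB with at least 2, and 56.7 in chow and 45.2 in DIO with at least 3 transmitter marker UMIs.

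Against 76 genes called in all neurons, edgeR called 0 with no replicate block, 19 with tag-ratio calls, 45 on thinned sums and 47 over all singlets, while DESeq2 called 0 (184 at an unadjusted p under 0.05). The count with no replicate block had 73 at an unadjusted p under 0.05. Leaving out a pool gave 1 to 181 calls, with 181 without chow, 1 without DIO and 17 without OB. In the arcuate marker class the range was 0 to 2. No alternative called Agrp or Npy. Npy values in DIO rest on 57 UMIs over all neurons.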
